A study of Mus musculus with 8 samples.

Results

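The genes of the basic proteins that replace histones in sperm, and of their close companions, were followed as a set of 6: the protamine genes Prm1, Prm2 and Prm3, the transition protein genes Tnp1 and Tnp2, and Hils1, the gene of a spermatid linker histone-like protein. They were chosen by name and not by their level, though with earlier results of these data known. All 6 were found among the 21058 genes listed and among the 17643 genes with enough counts to be tested. RNA was sequenced from testis cells separated by size with the Sta-Put method, in 4 libraries of Arid1a WT and 4 of Arid1a cKO pachytene spermatocytes, to ask how the loss of ARID1A, a subunit of the BAF chromatin remodeller, changes transcript levels in meiosis. In Arid1a cKO males both Arid1a alleles were floxed (Arid1a fl/fl) and the Stra8-Cre transgene, active from spermatogonia onward, was present on 1 allele (Tg/0), and Arid1a WT males had floxed Arid1a without Cre (Arid1a fl/fl or Arid1a fl/+). All were adults of a CD1 background, and fractions judged by light microscopy to be rich in pachytene spermatocytes were pooled from several males. Excision was incomplete in this model: some cKO spermatocytes keep ARID1A, and, as the study describes, the spermatids of cKO testes derive from such cells. The labels call the libraries biological replicates without naming the animals, so that the p-values below measure the spread between libraries.

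In round spermatids, the haploid cells that follow meiosis, the genes of transition proteins and protamines are switched on by CREM and its partners. Their mRNA is held by RNA-binding proteins without being translated and is used only after the spermatid nucleus starts to elongate, when histones give way first to transition proteins (TNP1, TNP2) and then to protamines (PRM1, PRM2). Arginine-rich protamines neutralise DNA and pack it tightly, whereas PRM3, encoded in the same cluster, is an acidic protein. Abundant mRNA of these genes is a known feature of spermatids.

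Prm1, Prm2, Prm3 and Tnp2 lie together on chromosome 16 (RefSeq, GRCm38.p6, the build the study's mm10 names), all on the minus strand: Tnp2 at chr16:10787935-10788655, Prm3 at chr16:10790508-10790914, Prm2 at chr16:10791377-10792105 and Prm1 at chr16:10796332-10796823. Tnp1 lies alone at chr1:73015074-73015899, on the minus strand. Hils1 lies at chr11:94967593-94968456 on the plus strand, inside the span of Sgca, which is read from the other strand. None of the 864 exon bases of Hils1 falls in an exon of Sgca. In the GENCODE M21 annotation, Prm3 and Hils1 have 1 exon and the other 4 genes have 2. Because the 4 clustered genes, Tnp1 and Hils1 sit on 3 chromosomes and were later found to move together, the 120 bases before each RefSeq start are shown 5′ to 3′ on the strand of the gene. Capitals mark TGANNTCA, a form of the cAMP response element (CRE) that CREM binds with its central bases left free, and the TATA-box letters TATAA and TATATA, each searched on both strands.

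Prm1 (chr16:10796824-10796943, minus strand): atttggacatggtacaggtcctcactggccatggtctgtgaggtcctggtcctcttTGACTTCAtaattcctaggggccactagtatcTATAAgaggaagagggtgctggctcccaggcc
Prm2 (chr16:10792106-10792225, minus strand): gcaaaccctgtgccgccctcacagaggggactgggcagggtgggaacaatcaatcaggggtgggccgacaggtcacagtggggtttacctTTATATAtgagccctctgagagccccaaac
Prm3 (chr16:10790915-10791034, minus strand): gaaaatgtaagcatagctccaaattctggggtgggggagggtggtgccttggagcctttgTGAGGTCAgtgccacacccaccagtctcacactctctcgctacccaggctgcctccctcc
Tnp1 (chr1:73015900-73016019, minus strand): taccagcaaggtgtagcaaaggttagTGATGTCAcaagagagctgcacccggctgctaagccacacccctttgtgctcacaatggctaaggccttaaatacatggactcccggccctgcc
Tnp2 (chr16:10788656-10788775, minus strand): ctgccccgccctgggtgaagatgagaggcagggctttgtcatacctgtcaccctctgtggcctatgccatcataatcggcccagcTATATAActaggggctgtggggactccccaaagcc
Hils1 (chr11:94967473-94967592, plus strand): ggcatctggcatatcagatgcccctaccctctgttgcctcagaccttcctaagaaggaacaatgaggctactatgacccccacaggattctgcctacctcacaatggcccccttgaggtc

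The full CRE, TGACGTCA, and the shorter TGACG that it contains were in none of the 6 windows, against 1.31% and 11.9% of the 27025 promoter windows of the same length. TGANNTCA, a form chosen after the sequences had been seen and which includes TGACGTCA, was found in 3: TGACTTCA at bases 64 to 57 before the start of Prm1, TGAGGTCA at 60 to 53 before Prm3 and TGATGTCA at 94 to 87 before Tnp1. It was found in 7.23% of all windows. TATAA was present before Prm1, Tnp2 and, on the opposite strand (printed as TTATA), Prm2, ending 26 to 29 bases before the start. It was in 12.4% of all windows. TATATA overlapped it in Prm2 and Tnp2 and was in 2.75% of all windows. Hils1 had none of these letters in its window. GENCODE starts Prm1 63 bases farther upstream than RefSeq, Tnp1 10 and Tnp2 5, and distances here are from the RefSeq start.

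The coding sequences show what kinds of protein the set makes. Those of Prm1, Tnp1 and Prm3 are printed from GENCODE M21 without the stop codon, Prm3 up to codon 100, with each arginine codon in capitals, because they stand for a protamine, a transition protein and the acidic member of the cluster.

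Prm1: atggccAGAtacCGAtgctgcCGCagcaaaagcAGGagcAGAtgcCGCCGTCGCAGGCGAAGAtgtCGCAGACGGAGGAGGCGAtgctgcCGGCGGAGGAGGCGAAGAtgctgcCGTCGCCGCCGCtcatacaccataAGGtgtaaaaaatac
Tnp1: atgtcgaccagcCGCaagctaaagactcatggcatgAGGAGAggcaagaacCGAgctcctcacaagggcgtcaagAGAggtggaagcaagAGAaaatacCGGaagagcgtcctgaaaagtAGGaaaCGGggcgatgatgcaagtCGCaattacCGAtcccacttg
Prm3: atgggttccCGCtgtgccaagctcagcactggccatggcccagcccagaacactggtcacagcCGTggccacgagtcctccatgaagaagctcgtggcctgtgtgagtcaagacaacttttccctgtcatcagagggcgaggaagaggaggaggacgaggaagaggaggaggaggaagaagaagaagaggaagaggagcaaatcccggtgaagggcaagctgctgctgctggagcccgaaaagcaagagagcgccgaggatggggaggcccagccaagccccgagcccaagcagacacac

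Of the 51 codons of Prm1, 28 encode arginine (54.9%) and 9 encode cysteine. Prm2 has 38 arginine codons of 107 (35.5%) and 16 histidine codons. Prm3 has 2 arginine codons of 101, while 30 of its codons (29.7%) encode aspartate or glutamate. Tnp1 has 11 arginine and 10 lysine codons of 55, Tnp2 has 16 and 11 of 117, and Hils1 has 12 and 19 of 170. Arginine and lysine codons together made up 60.8% of Prm1, 38.3% of Prm2, 38.2% of Tnp1, 23.1% of Tnp2, 18.2% of Hils1 and 8.91% of Prm3. Stretches of 31 bases shared with transcripts of another gene made up 3.42% of Prm3 and 2.70% of Tnp1 and were not found in the other 4, so few reads of these genes could be assigned elsewhere by sequence identity.

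Libraries held 15850961 to 22044507 estimated counts, and a member was covered by 479 to 40779 counts in each library. Arid1a, the targeted gene, had 98.8 to 128.5 CPM (counts relative to the library size after TMM adjustment) in Arid1a WT and 76.4 to 82.9 in Arid1a cKO (log2 fold change −0.51 ± 0.075, SE; edgeR quasi-likelihood test with Benjamini-Hochberg adjustment, adjusted p = 2.31e-05). Much of the transcriptome differed between genotypes: 13048 genes passed an adjusted p of 0.05, with 6435 higher and 6613 lower in Arid1a cKO, and the median log2 fold change over all tested genes was −0.02. The genes listed summed to 79.6% ± 1.51 of the library total in TPM (transcript abundance scaled for length and library size) in Arid1a WT and 88.4% ± 0.253 in Arid1a cKO (SD, n = 4). Comparisons on the TPM scale carry that difference, and fold changes below are from counts.

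All 6 genes were higher in Arid1a cKO, by 4.28 to 4.70-fold, and in none did a cKO library overlap a WT library. Their log2 fold changes ran from 2.10 to 2.23 with a median of 2.20, a range of 0.135 log2 units across 6 genes on 3 chromosomes. All 6 passed the edgeR test (adjusted p from 7.55e-14 to 4.19e-13), where 36.5% of tested genes were called higher and 37.5% lower, and none of the 6 was lower. Every cKO library lay above every WT library in CPM for 6 of 6 members and for 34.0% of tested genes. All 6 were called with a log2 fold change of 2 or more, which 8.82% of tested genes reached, and 5.93% to 7.61% of tested genes had a higher log2 fold change than a given member. In bulk RNA such as this, more cells of a type and more RNA per cell cannot be told apart.

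Prm1, the arginine-rich protamine that all mammals share, was present at 1453, 1330.0, 1541 and 1462 TPM in the WT libraries and at 5702, 6132, 5833 and 6249 TPM in the cKO libraries. The groups did not overlap, and in CPM the lowest cKO library was 4.01 times the highest WT library. Its log2 fold change in counts was 2.16 ± 0.063 (SE; edgeR, adjusted p = 4.19e-13).

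Prm2, the protamine that is made as a precursor and trimmed on the DNA, was at 1409, 1405, 1589 and 1439.8 TPM in Arid1a WT and at 5674, 5749, 5688 and 5789.7 TPM in Arid1a cKO. The cKO libraries were close to each other, with a coefficient of variation of 0.939% in TPM. Its log2 fold change was the smallest of the set, 2.10 ± 0.053 (SE; edgeR, adjusted p = 1.09e-13).

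Prm3, the acidic product of the cluster, was the least abundant member. It was measured at 135, 135, 163 and 135 TPM in Arid1a WT and at 580.1, 613, 621 and 644 TPM in Arid1a cKO. WT replicate 3 stood above the other WT libraries and far below all cKO libraries. Its log2 fold change was 2.23 ± 0.057 (SE; edgeR, adjusted p = 1.20e-13).

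Tnp1, the smaller transition protein, was at 1274, 1291, 1514 and 1344 TPM in Arid1a WT and at 5485, 5829, 5778 and 6380.4 TPM in Arid1a cKO. WT replicate 3 and cKO replicate 4 were the highest of their groups, and the groups did not overlap. Its log2 fold change was 2.23 ± 0.063 (SE; edgeR, adjusted p = 3.09e-13).

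Tnp2, the zinc-binding transition protein encoded in the protamine cluster, was at 1097, 1164, 1291 and 1103 TPM in Arid1a WT and at 4520.0, 4749, 4833 and 4979.8 TPM in Arid1a cKO. It was the lowest of the 4 abundant members in each of the 8 libraries. Its log2 fold change was 2.16 ± 0.051 (SE; edgeR, adjusted p = 7.55e-14).

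Hils1, the linker histone-like protein of elongating spermatids, was at 161, 161, 177 and 174 TPM in Arid1a WT and at 747, 727, 703 and 713 TPM in Arid1a cKO. Both groups were narrow and did not overlap. Its log2 fold change was 2.23 ± 0.055 (SE; edgeR, adjusted p = 9.32e-14), within its error of those of Prm3 and Tnp1.

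**Figure D1:**
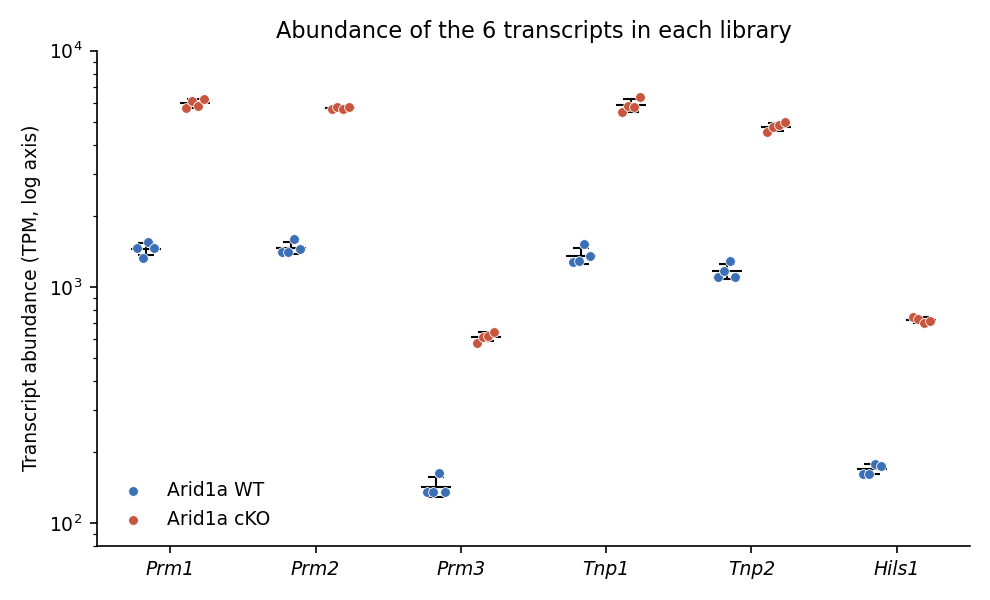
Transcript abundance (TPM, log axis) of the 6 genes in each library; points are libraries, blue for Arid1a WT and orange for Arid1a cKO, and bars give the mean ± SD of 4. In each gene the cKO points lie together above all WT points, and Prm3 and Hils1 sit below the other 4 in both genotypes.

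In Arid1a WT the mean levels were ordered Prm2 (1461 ± 86.7 TPM, SD, n = 4), Prm1 (1447 ± 87.2), Tnp1 (1356 ± 110), Tnp2 (1164 ± 90.0), Hils1 (168 ± 8.25) and Prm3 (142 ± 13.8). The libraries of each neighbour in that order overlapped except between Tnp2 and Hils1, where the level dropped by a factor of 6.90. In Arid1a cKO the order was Prm1 (5979 ± 255 TPM), Tnp1 (5868 ± 374), Prm2 (5725 ± 53.8), Tnp2 (4770 ± 192), Hils1 (723 ± 19.2) and Prm3 (615 ± 26.4). There the first 3 overlapped, while Tnp2, Hils1 and Prm3 were each separate from the gene above. The levels of Prm1, Prm2 and Tnp1 thus overlapped in both genotypes.

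Among the genes listed, ranked by TPM in each library, the 4 abundant members filled places 1 to 4 in every Arid1a cKO library. Tnp2 held place 4 each time. Genes not listed could not be ranked, and those listed summed to 79.6% of TPM in Arid1a WT and 88.4% in Arid1a cKO. In Arid1a WT, Prm1 ranked 28 to 39, Prm2 26 to 37, Tnp1 30 to 41 and Tnp2 41 to 57. Hils1 went from ranks 953 to 1131 in WT to 132 to 148 in cKO, and Prm3 from 1074 to 1400 to 171 to 208. The most abundant listed gene of Arid1a WT was Ldhc, the sperm lactate dehydrogenase, at 4760 ± 401 TPM (SD, n = 4). It was at 3787 ± 123 TPM in Arid1a cKO.

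Together the 6 genes took 0.574% ± 0.0366 of all TPM in Arid1a WT and 2.37% ± 0.0849 in Arid1a cKO (SD, n = 4), a difference of 1.79 percentage points and a ratio of 4.13. By library, the share was 0.553%, 0.549%, 0.627% and 0.566% in WT and 2.27%, 2.38%, 2.35% and 2.48% in cKO. The groups did not overlap. Counted against the listed genes alone, the share went from 0.722% to 2.68%.

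The make-up of that share changed little. Prm1 supplied 25.2% ± 0.983 of the members' TPM in Arid1a WT and 25.2% ± 0.380 in Arid1a cKO (SD, n = 4). Prm2 supplied 25.5% ± 0.120 and 24.2% ± 0.655, and Tnp1 supplied 23.6% ± 0.452 and 24.8% ± 0.703. Only Prm2 and Tnp1 moved by more than 1 percentage point, in opposite directions. Tnp2 supplied 20.3% and 20.1%, Hils1 2.94% and 3.06%, and Prm3 2.47% and 2.59%.

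Whether any member changed more than another was tested with the ratio of 2 members within a library, which does not depend on how libraries are scaled. None of the 15 pairs passed an exact permutation test over 70 assignments after adjustment over the pairs (lowest adjusted p = 0.143), and 3 pairs reached the smallest p possible, 0.0286, before it. Those were Prm2/Tnp1, lower in Arid1a cKO by a log2 ratio difference of −0.14 ± 0.042 (SE), Prm2/Hils1 at −0.13 ± 0.032, and Prm3/Tnp2 at 0.08 ± 0.025. In those 3 pairs the libraries of the genotypes did not overlap. With 15 pairs and this smallest p, at least 9 pairs would have to reach it for any to pass after adjustment, so that the adjusted values cannot show that the members changed alike. The difference of largest size was that of Prm2/Prm3, −0.14 ± 0.038 (two-sided exact p = 0.0571, adjusted p = 0.214). The 3 pairs past 0.1 in size all had Prm2 as the smaller riser.

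The ratio of Prm1 to Prm2, often used to describe sperm, was 0.990 in Arid1a WT (libraries 0.946 to 1.03) and 1.04 in Arid1a cKO (1.00 to 1.08), with overlapping groups (two-sided exact permutation test, p = 0.143, adjusted p = 0.306). The ratio of Tnp1 to Tnp2 was 1.16 in WT and 1.23 in cKO (exact p = 0.0857, adjusted p = 0.257). The ratio of Prm3 to Tnp1 was 0.105 in both genotypes. Over the 15 pairs the differences lay between −0.144 and 0.0794 log2 units.

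**Figure D2:**
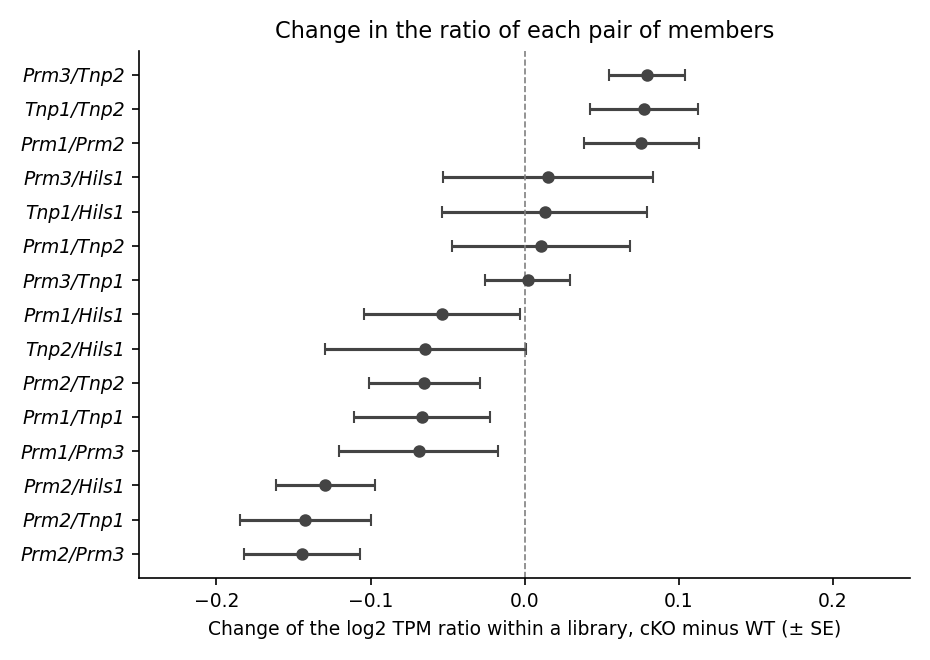
Change in the log2 TPM ratio of each of the 15 pairs of members within a library, Arid1a cKO minus Arid1a WT, with its standard error (4 libraries a genotype). All changes lie between −0.144 and 0.0794, and the 3 most negative pairs have Prm2 as the first gene.

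Within a genotype, the members also varied together from library to library. Over the 8 libraries, the correlation of deviations of log2 CPM from the genotype mean had a median r of 0.770 over the 15 pairs, from 0.0894 for Tnp2 and Hils1 to 0.912 for Prm3 and Tnp2. The points share their library and its depth, and r is given as a description. By the same measure, the 5 of 12991 genes whose deviations were most like the mean of the 6 members were Cnnm2 (r = 0.956), S100a11 (0.956), Pdzk1ip1 (0.949), Cypt1 (0.944) and Abhd6 (0.935). Their response to genotype differed. Cypt1, a gene of spermatids, rose by 2.59 log2 units and Pdzk1ip1 by 2.41 (edgeR, adjusted p = 7.11e-14 and 4.51e-14). By the same test S100a11 was lower (−0.90, adjusted p = 3.05e-04) and Cnnm2 had a value of −0.16 (adjusted p = 0.324). Cnnm2 (3.88 CPM in WT, 3.48 in cKO) and S100a11 (2.98 and 1.60) were low. With 12991 genes and 8 libraries, the highest r can be large by selection alone, so that no likeness is concluded.

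Most genes beside the members on the chromosome did not share their change. Of 20 neighbours, 7 were called higher and 4 lower, with a median log2 fold change of 0.17, beside 36.5% and 37.5% of all tested genes. On chromosome 16, Socs1, an inhibitor of cytokine signalling that lies 2.40 kb from Tnp2, had 4.67 ± 0.673 CPM in Arid1a WT and 2.22 ± 0.482 in Arid1a cKO (SD, n = 4), and its log2 fold change was −1.06 ± 0.17 (SE; edgeR, adjusted p = 4.68e-05). Rmi2, the first gene on the other side at 38.2 kb from Prm1, had 9.44 and 9.83 CPM and did not pass (log2 fold change 0.06, adjusted p = 0.588). Clec16a was higher (0.20) and Litaf lower (−0.59), while Dexi, Ciita and Gm21859 did not pass. Snn, 269 kb from Prm1, was the neighbour of the cluster with a change near that of the members, 1.95 ± 0.12 (SE; edgeR, adjusted p = 1.08e-09), at 4.26 and 16.4 CPM.

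Around Tnp1 the nearest gene, Igfbp5, was at 0.265 and 0.448 CPM and did not pass. Igfbp2 was higher by 1.06 and Cxcr2 by 0.52, and Rpl37a, a ribosomal protein gene, was at 144 and 142 CPM (log2 fold change −0.02, adjusted p = 0.872). Tns1, 894 kb away, was higher by 2.32 ± 0.051 (SE; edgeR, adjusted p = 5.40e-14). Rufy4 did not pass.

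Around Hils1 the changes went both ways. Sgca, the sarcoglycan gene that spans Hils1 on the other strand, was at 19.4 CPM in Arid1a WT and 8.25 in Arid1a cKO (log2 fold change −1.24 ± 0.083, SE; edgeR, adjusted p = 4.66e-09), opposite in direction to Hils1. Ppp1r9b was lower (−1.20), and Col1a1 (0.91) and Samd14 (0.90), both under 4 CPM, were higher. Tmem92 and Gm11541 did not pass.

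**Figure D3:**
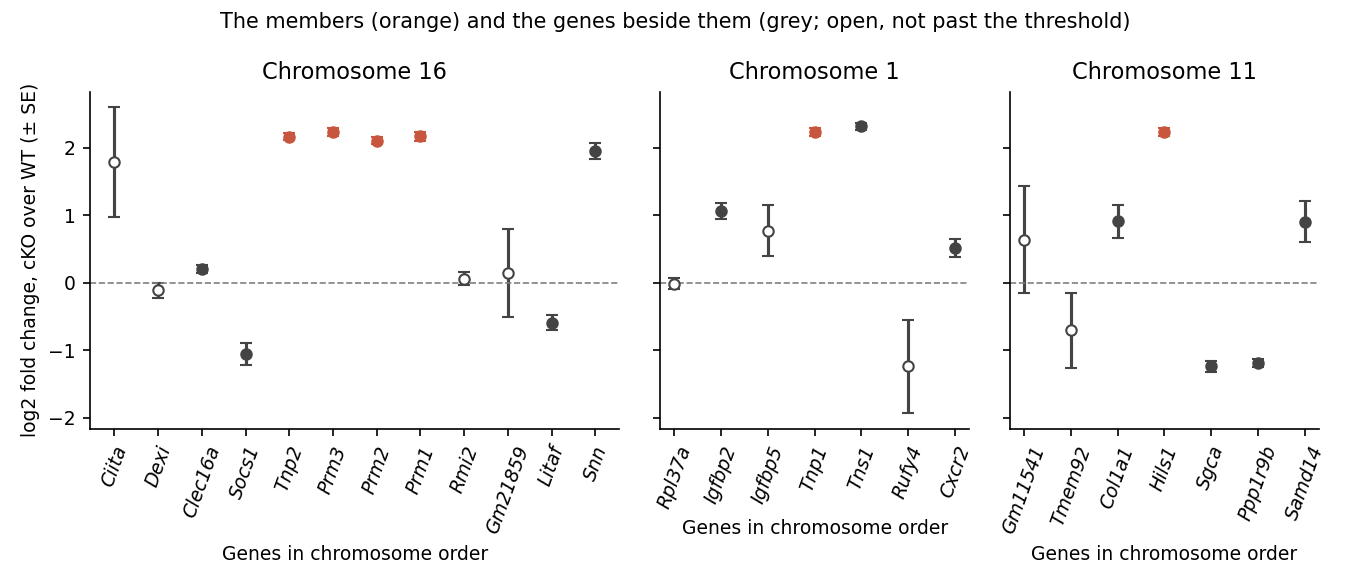
The log2 fold change (Arid1a cKO over Arid1a WT, ± SE) of the members, in orange, and of the genes beside them, in grey, in chromosome order; open points did not pass an adjusted p of 0.05. The members lie between 2.10 and 2.23 while the neighbours lie between −1.24 and 1.06, except Snn, Tns1 and Ciita, which had at most 3 counts in a library.

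Regulators of the members' transcription moved in several directions. Of 12 listed activators, 7 were called higher, 2 lower and 3 not called, beside 36.5% and 37.5% of all tested genes, with a median log2 fold change of 0.19. That median was 0.10 without TMM, 0.44 with length offsets and 0.35 with limma on log2(TPM + 1). Without TMM, 6 activators were called higher and 5 lower, and with length offsets 1 was called lower. Crem, the activator itself, went from 155 ± 16.4 CPM in WT to 328 ± 8.67 in cKO (SD, n = 4), which is 1.08 ± 0.067 on the log2 scale (SE; edgeR, adjusted p = 1.87e-09). Fhl5, which encodes ACT, the spermatid co-activator of CREM, went from 38.6 ± 1.60 to 175 ± 12.7 CPM (2.18 ± 0.060, adjusted p = 2.25e-13), inside the range of the members. Taf7l, a germ cell TFIID subunit, rose by 1.94, Sox30 by 1.09 and Gtf2a1l, a germ cell TFIIA subunit, by 0.62.

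Smaller rises were called for Tbpl1, the TBP-like factor that spermatids require (0.23), and Prkaca, the catalytic subunit of protein kinase A (0.15). Kdm3a, the H3K9 demethylase known to act on Tnp1 and Prm1, was lower, at 498 ± 22.5 CPM in WT and 232 ± 8.55 in cKO (log2 fold change −1.11 ± 0.051, SE; edgeR, adjusted p = 6.18e-11), and Creb1 was lower (−0.80). Rfx2 (−0.06), Rfx4 (−0.07) and Brdt (−0.02), the testis bromodomain protein, did not pass. For 2 genes the TPM, which are scaled for length, differed from the counts. Rfx4 was at 71.5 ± 5.45 TPM in WT and 115 ± 3.62 in cKO (SD, n = 4). Creb1 was nearly level, at 10.6 ± 1.92 and 9.04 ± 0.175 TPM. Creb1 and Rfx4, of lower abundance, were named after their values were seen. None of the other 11 activators came within the members' range of 2.10 to 2.23.

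Of the 18 listed genes of mRNA storage and translation, 7 were called higher, 6 lower and 5 not called, with a median of −0.05. The shares called were 38.9% higher and 33.3% lower, near the 36.5% and 37.5% of all tested genes. Both without TMM and with limma on log2(TPM + 1), 9 genes of this list were called lower. Ybx2 and Ybx3, the Y-box proteins that hold protamine mRNA, were at 2248 and 2128 CPM in Arid1a WT and at 2095 and 2033 in Arid1a cKO, and neither passed (log2 fold change −0.10 and −0.07; adjusted p = 0.147 and 0.312 by edgeR). Pabpc1 (0.07) and Ddx25 (−0.05), an RNA helicase of spermatids named after its value was seen, did not pass either. Piwil1, the piRNA-binding protein MIWI, was lowest, at 1597 CPM in WT and 109 in cKO (−3.88 ± 0.054, SE; edgeR, adjusted p = 1.39e-14).

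Ptbp2 (−1.67), Dazap1 (−1.12) and Tarbp2 (−0.72), an RNA-binding protein needed for protamine translation, were also called lower. Papolb, the testis poly(A) polymerase (0.96), Fxr1 (0.58), Pabpc2 (0.50) and Eif4g3 (0.21) were called higher. The other 3 called higher, named after their values were seen, were Paip2 (1.15), Paip2b (1.37) and Fmr1 (1.82), and no gene of this list reached the range of the members.

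Of the 23 genes of histone exchange and protamine modification, 10 were called higher, 9 lower and 4 not called, shares of 43.5% and 39.1% that are also near those of all tested genes. Their median was −0.02 and changed sign among the alternatives (−0.11 without TMM, 0.12 with length offsets). The most abundant ones changed by less than 1 log2 unit: Phf7 by 0.23, the chaperone genes Hspa2 by −0.27 and Hspa4l by 0.34, Ppp1cc, a phosphatase that acts on PRM2, by 0.23, Psme4 by 0.58, Dot1l by 0.59 and Ipo4, an importin of TNP2, by 0.45. Srpk1, a PRM1 kinase (−0.02), and Brdt, given above as an activator, did not pass. Chd5, the remodeller of histone removal, was the exception, going from 141 ± 5.98 to 618 ± 31.1 CPM (2.14 ± 0.055, SE; edgeR, adjusted p = 1.19e-13). Cdyl (2.02) and Camk4, a PRM2 kinase (2.29), named after their values were seen, were the other genes of this list above 1. Nap1l4 (−1.43), Parg (−1.36) and Pygo2 (−1.36) were those below −1, and Sirt1 (−0.97), Kat5 (−0.92), Rnf8 (−0.80), Parp2 (−0.77) and Epc1 (−0.33) were called lower too, all 8 also named after their values were seen.

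Of 14 spermatogenic histone variant genes, 7 were called higher and 5 lower (median 0.32, and 0.16 with limma on log2(TPM + 1)), beside 36.5% and 37.5% of all tested genes. In counts the abundant replacement variants were divided, with H3f3a at 0.65, H3f3b at −0.43, H2az1 at −0.89 and Macroh2a1 at −1.07. In TPM, which are scaled for length, H3f3b was nearly level, at 449 ± 9.01 in WT and 441 ± 10.4 in cKO (SD, n = 4). H3f3a, H2az1 and Macroh2a1 kept their direction on that scale. H1f7, the spermatid linker histone H1T2, went from 73.5 ± 2.80 to 323 ± 4.42 CPM (2.14 ± 0.047, SE; edgeR, adjusted p = 5.40e-14). The spermatid variants H2ap (2.49), H2bl1 (2.31), H2al2a (2.02) and, from 0.178 CPM, H2ab1 (3.06) were also called higher. H2ac1 (−0.75) and H2ax (−0.65) were called lower. H1f6, the linker histone of spermatocytes (0.26), and H2bc1 (−0.67) did not pass. Counts were low for H1f6 (61 to 95 in a library), H2bc1 (6 to 33) and H2ac1 (14 to 41). The genes from H2ap on were named after their values were seen.

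Genes of spermatids outside the set changed by amounts close to the members'. Of 24 round spermatid genes, 20 were called higher and 2 lower, with a median log2 fold change of 2.15. Of 28 other elongating spermatid genes, 25 were called higher and 1 lower, with a median of 2.04. Among all tested genes, 36.5% were called higher and 37.5% lower. Values between 1.8 and 2.5, a band chosen after the values were seen, held 15 of the 24, 20 of the 28, all 6 members and 8.28% of tested genes. The members' own range of 2.10 to 2.23 held 297 genes, 1.68% of those tested.

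Not every gene of these lists moved so. Among the most abundant round spermatid genes, Actl7b rose by 1.87, Crisp2 by 0.46 and Pgk2, a sperm glycolytic enzyme, from 277 to 786 CPM, Dkkl1 (−0.24) and Dpy19l2 (−0.19) were lower, and Spata16 did not pass (0.04). Among the elongating spermatid genes, Akap4, the main fibrous sheath protein, rose by 2.38, Odf2 by 0.95, Fsip2 by 0.67, Gpx4 by 0.60 and Meig1 by 0.52, and Ggnbp1 did not pass (−0.05). The gene of that list called lower was Sult1e1, named for that reason, at 1.04 and 0.124 CPM (1 to 28 counts in a library). Its log2 fold change of −3.00 was near the median of the Leydig genes (−2.92) and far from that of its own list (2.04). The cells that its reads came from were not tested.

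The libraries labelled as pachytene spermatocytes held transcripts of other cell types in both genotypes, and these moved with genotype. The 4 round spermatid markers (Acrv1, Spaca1, Izumo1, Sun5) were all called higher, and their summed level was 275 to 309 TPM in Arid1a WT and 1174 to 1259.7 TPM in Arid1a cKO. The 5 elongating spermatid markers (Odf1, Smcp, Gapdhs, Oaz3, Spem1) were all called higher, at 1369.7 to 1613 TPM and 5358 to 5556 TPM. Of the 7 pachytene markers 2 were called higher and 5 lower, with sums of 6988 to 7976 and 5262 to 5568 TPM.

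The ratio of the members to spermatid transcripts depended on which genes stood for spermatids. Their summed TPM was 19.3 to 20.3 times that of the 4 round spermatid markers in Arid1a WT and 18.0 to 21.1 times in Arid1a cKO, with the groups overlapping. It was 3.79 to 4.04 times that of the 5 elongating spermatid markers in WT and 4.16 to 4.62 times in cKO, without overlap. Against the longer lists, whose most abundant genes changed less, the ratio rose: it was 0.813 to 0.952 in WT and 2.05 to 2.38 in cKO over the 24 round spermatid genes, and 0.522 to 0.612 and 1.05 to 1.14 over the 28 elongating spermatid genes. The part of the cells of each stage in the members' difference was not tested.

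Markers of Sertoli and Leydig cells, somatic cells of the testis, were lower in Arid1a cKO: the 4 Sertoli markers summed to 55.4 to 74.6 TPM in Arid1a WT and 18.8 to 20.8 TPM in Arid1a cKO, and the 3 Leydig markers to 67.4 to 79.7 and 5.12 to 6.08 TPM, with all 7 called lower. The 3 macrophage markers were all called higher, at sums of 1.25 to 2.02 and 3.15 to 4.23 TPM, and of the 4 spermatogonia markers 3 were called higher and 1 lower, at 43.3 to 47.1 and 19.5 to 22.1 TPM. That lower sum came from Id4 (35.2 to 5.09 TPM), while Zbtb16 (2.89 to 4.63), Gfra1 (1.79 to 2.12) and Kit (4.84 to 9.16) were higher. No marker was at 0 in any library. For comparison, 36.5% of all tested genes were called higher and 37.5% lower. Over the longer lists, all 13 Sertoli genes tested and 7 of 8 Leydig genes were lower (medians −1.47 and −2.92), and 9 of 11 macrophage and blood genes were higher (median 1.35). Of 23 pachytene genes 6 were higher and 16 lower (−0.45), of 12 leptotene and zygotene genes 8 were higher and 4 lower (0.82), and of 13 spermatogonia genes 9 were higher and 2 lower (0.41). With limma on log2(TPM + 1), which understates changes of low genes, the medians were −1.58 for Leydig, 0.42 for macrophage and blood, 0.53 for leptotene and zygotene and 0.16 for spermatogonia genes. Their part in the members' difference was not tested.

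**Figure D4:**
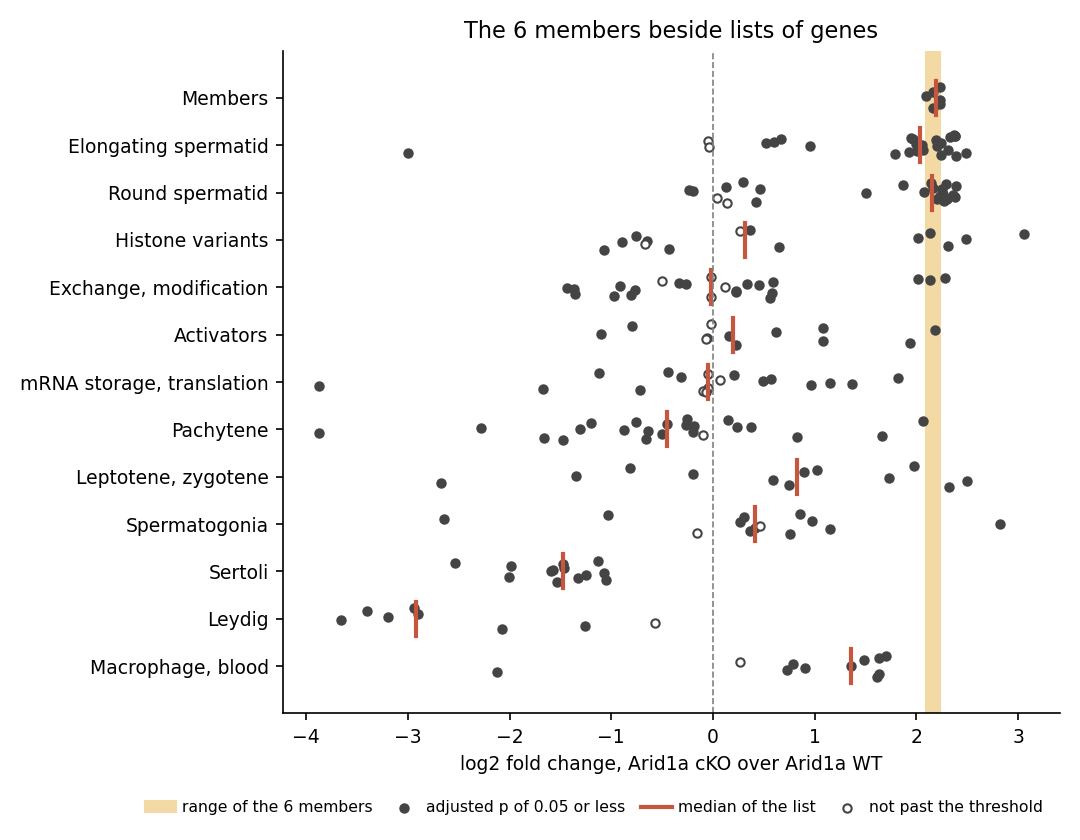
The log2 fold change (Arid1a cKO over Arid1a WT) of each gene of the 6 members and of 12 lists; filled points passed an adjusted p of 0.05, open points did not, orange bars are list medians and the shaded band is the range of the members, 2.10 to 2.23. Most spermatid genes lie at or near the band, with medians of 2.04 and 2.15, and the regulator lists centre near 0.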

How the data were processed

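The 8 RNA-seq libraries, 4 of Arid1a WT and 4 of Arid1a cKO pachytene spermatocytes, were grouped by their labels. The authors quantified reads with Salmon, summed transcripts to genes with tximport (mm10 annotation) and deposited estimated counts per gene, scaled neither for depth nor for length. The authors also deposited TPM, scaled per library to transcript length and total abundance. Their table of differential expression holds log2 fold changes and p-values from DESeq2 and was not used. Every column of per-sample values was used, with 0 left out. Members and lists were chosen with earlier results of these data known.

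Estimated counts, for which the test had been planned as counts, were rounded. Genes with at least 10 counts over the 8 libraries (17643 of 21058; 3415 were left out, none a member) were tested with edgeR 4.0.16 in R 4.3.3 (TMM, glmQLFit, glmQLFTest, genotype only) with a threshold of 0.05 on p-values adjusted by Benjamini-Hochberg. SE was taken as log2 fold change over root F. Ratios of members were tested by two-sided exact permutation. No p is given for a sum over the members, so the test planned for their share of TPM was left out. The script was tested on simulated data. From each list described gene by gene, the 5 called genes of highest mean CPM were named (8 for activators, mRNA storage and exchange), with any not called among the 5 or 8 highest; markers are named as such, and other exceptions are said in place.

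Libraries held 15850961 to 22044507 counts. Replicates of a genotype differed by more than counting noise (chi-square per degree of freedom 1.71 to 18.0), so that no 2 were merged. Alternatives were DESeq2 1.42.0, other normalizations and filters, length offsets, a stricter threshold of 0.01, limma 3.58.1 on log2 TPM with a pseudocount of 1 or 0.1, a replicate block and each library left out. Sequences are from RefSeq (GRCm38.p6, all 6 members matched) and GENCODE M21 (GRCm38).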

Additional observations from a re-analysis of the deposited data

Results flagged for a closer look

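Tnp1 in Arid1a cKO was flagged because 1 library stood apart from the others. Replicate 4 had 1307 CPM, and the other libraries had 1172, 1185 and 1176 CPM, so that its gap to the nearest was 0.903 of the whole range of the group. All 4 libraries lay above the highest Arid1a WT library, 274 CPM, and the log2 fold change of Tnp1 without Arid1a cKO replicate 4 was 2.19. This was 1 of 46 groups of 4 examined, in which chance would flag about 2.3. The TPM of single genes was not among those groups. On that scale Prm3 was at 163 TPM in Arid1a WT replicate 3 and at 135 TPM in each other Arid1a WT library.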

How the results depend on the processing

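The log2 fold changes of the 6 members kept their direction and their side of the threshold in all 120 values from 20 alternatives, between 1.97 and 2.28, with adjusted p of at most 5.89e-10. With each library left out they lay between 2.07 and 2.28. The same-numbered libraries of the genotypes did not deviate together (r from −0.137 to 0.162, and 3 of 8 libraries correlated best with their own number), and with a replicate block the members lay between 2.10 and 2.23. Without TMM the median of all genes was −0.12, and the median of the members was 2.10. The members' share of TPM differed by 1.96 percentage points over listed genes only (added after the data were seen), by 0.476 as a share of estimated counts, and by 1.76 to 1.83 with a library left out. Of the activators, 5 were lower without TMM and 1 with length offsets. Of the elongating spermatid genes, 2 were lower without TMM and 3 with limma on either TPM scale, where 5 spermatogonia genes were higher. With limma on log2(TPM + 0.1) the medians were −2.71 for Leydig, 0.83 for macrophage and blood, 0.65 for leptotene and zygotene and 0.23 for spermatogonia genes. The median of the mRNA storage genes lay between −0.15 (without TMM) and 0.00 (without Arid1a WT replicate 4). The causes were not tested.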

Other observations

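Some genes that were placed in no spermatid list changed by amounts near those of the members, and are named after their values were seen. Of the leptotene and zygotene genes, Rec8, a meiotic cohesin subunit, went from 23.8 to 134 CPM, Tex15 from 65.3 to 327 CPM (log2 fold change 2.32) and Dmc1, the meiotic recombinase, from 4.65 to 18.3 CPM (1.98), whereas Spo11, which makes meiotic DNA breaks, went from 134 to 21.0 CPM (−2.68). Of the pachytene genes, Cdc25c went from 10.8 to 45.4 CPM (2.07) and Mlh3, a crossover factor, from 104 to 21.4 CPM (−2.28). All 6 passed the edgeR test.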
